A study of Saccharomyces cerevisiae with 20 samples.

Results

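The promoters described here are the 150 budding yeast promoters, of 6678 ORFs with usable values, at which acetylation of lysine 18 of histone H3 (H3K18ac) was higher 1 hour after each of the 2 changes of growth medium in a stress and recovery regime. Sample A was exponentially growing cells in rich medium, sample B was taken 1 hour after dilution into fresh medium with 1 M KCl, sample C after adaptation while still in KCl, sample D 1 hour after transfer to fresh medium without KCl, and sample E after recovery. Both steps also renewed the medium and lowered the cell density, so their parts in a difference cannot be told apart from that of KCl. All samples came from a strain in which the histone acetyltransferase Gcn5 carries a myc tag, and no sample of a strain without the tag or without Gcn5 was used here. Chromatin was precipitated with antibodies against H3K18ac, histone H3, acetylated lysine 16 of histone H4 (H4K16ac) and the tag on Gcn5, and the DNA was hybridised to tiling arrays of the yeast genome (ChIP-chip).

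The values are scores on a log scale whose base is not stated. Each ORF has 9 bins over the 5′ IGR, which the methods take from the midpoint of the intergenic region before it up to its start codon, 20 bins over its own length and 9 over the intergenic sequence that follows it (3′ IGR). Each file was centred on its median over all bins, and the promoter score of an ORF is the mean of the 9 bins of its 5′ IGR. There was 1 array value per antibody and sample, since the 2 cultures of the methods are not kept apart in the files. No replicate error and no test between samples can therefore be given. In their place, a promoter is counted as higher or lower where the difference is larger than the SD, over all ORFs, of sample E minus sample A, the recovered and the original cells. That SD was 0.150 for H3K18ac, 0.219 for H3, 0.112 for H4K16ac and 0.109 for Gcn5. In bulk chromatin, a mark present in more cells and a mark that is denser in each cell cannot be told apart.

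Gcn5 is the catalytic subunit of SAGA and related complexes, which activators bring to promoters, and lysine 18 of H3 is among the residues it acetylates. Acetylated promoter nucleosomes are usually found at active genes and can be removed during activation, which a H3 signal would register as a loss. Yeast growing on glucose keeps genes for other carbon sources, respiration and reserve carbohydrates repressed, largely through the Snf1 kinase and the Mig1 repressor, and many of these genes also respond to stress through Msn2 and Msn4.

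Members were chosen by the smaller of the 2 differences in promoter H3K18ac, sample B minus sample A (KCl addition) and sample D minus sample C (KCl removal), so these differences are a description of the choice. The smaller difference ran from 1.40 for *SPL2* to 0.318 for the last member. KCl removal gave the smaller difference in 79 members and KCl addition in 71. The members just inside the limit were *ATG39*, *SCD5* and *SDS24*, whose differences after KCl addition were 0.35, 0.38 and 0.35 and after its removal 0.32 each. Just outside it lay *MSB2*, *CBP4* and *FMP23*, with 0.35, 0.59 and 0.46 after addition and again 0.32 each after removal. The limit therefore cuts through a continuous distribution. At this limit 471 ORFs passed after KCl addition, 655 after its removal, and the 150 members both times. All 150 members also exceeded the SD in both changes, which the rule brought about; among all ORFs 17.2% were higher by more than the SD after addition, 27% after removal and 7.71% after both.

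H3K18ac along the members was not confined to the 5′ IGR. Averaged over the members, the difference was above 0 in all 38 bins in both changes. It was largest in the fifth bin of the 5′ IGR, at 0.63 after KCl addition and 0.60 after its removal, and averaged 0.39 and 0.33 over the first 4 bins of the ORF and 0.16 and 0.21 over its last 4. The mean H3K18ac of the ORF was higher in 134 members after KCl addition and in 146 after its removal, where 53.8% and 58.0% of all ORFs were, with median differences of 0.21 and 0.20, against 0.01 and 0.02 over all ORFs. These bins come from the same arrays as the rule and are not independent of it.

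**Figure D1:**
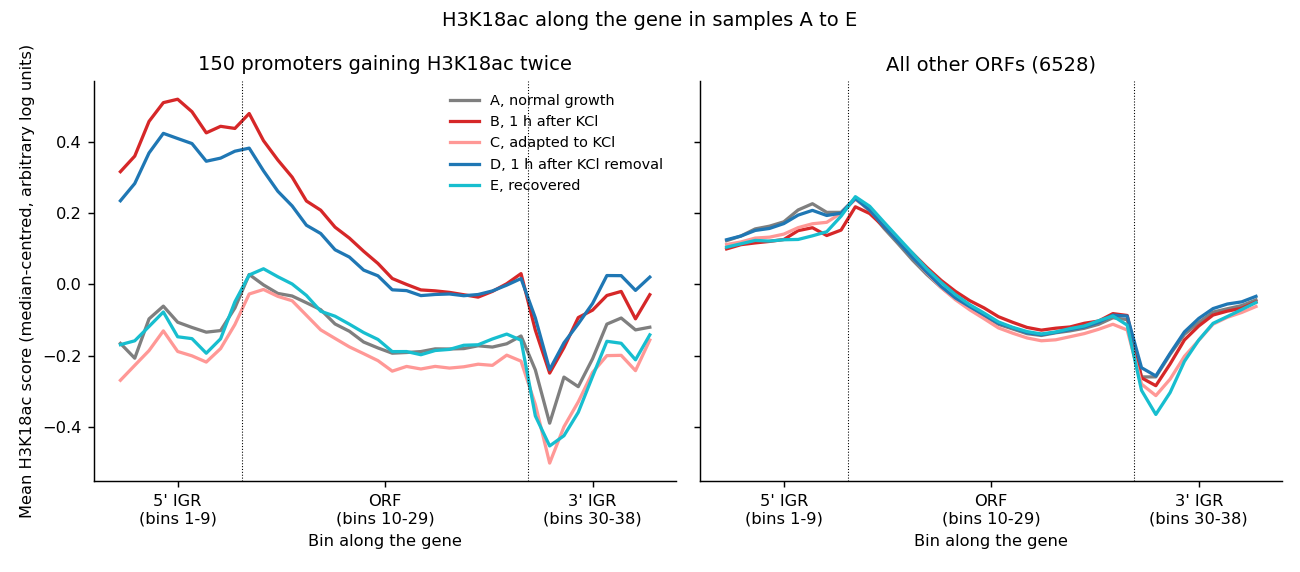
Mean H3K18ac score (median-centred, arbitrary log units) in 38 bins from the 5′ IGR to the 3′ IGR for samples A to E, for the 150 members on the left and the other 6528 ORFs on the right. In the members the curves of samples B and D lie above those of A, C and E from the 5′ IGR into the ORF, whereas the 5 curves of the other ORFs lie close together.

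The members started low. In sample A their median promoter H3K18ac was -0.15, against 0.21 for the other ORFs, and 90 of the 150 scored below 0 against 36.0% of all ORFs. Their medians in samples B, C, D and E were 0.45, -0.19, 0.37 and -0.10, while those of the other ORFs stayed between 0.17 and 0.21. Since the rule required B above A and D above C, the order of the samples is largely set by it and is given as a description. In 148 members both B and D were above A, C and E, where 17.8% of all ORFs had that order. Sample B was the highest in 100 members and sample D in 50, against 23.4% and 24.3% of all ORFs, and the lowest sample was C in 73, E in 45 and A in 32, against 25.4%, 19.6% and 9.70%.

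After recovery the median of E minus A in promoter H3K18ac was -0.01 for the members, against -0.03 over all ORFs. Of the 150 members 100 lay within the SD, a smaller share than the 75% of all ORFs. H3K18ac in E was higher than in A by more than the SD in 24 members, where 5.99% of all ORFs were, and lower in 26, where 19% of all ORFs were. *HBT1*, *SRL4* and *ADR1* had the largest positive differences (0.46, 0.40 and 0.32) and *MOT3*, *YML131W* and *PXA2* the largest negative ones (-0.52, -0.48 and -0.46). Sample A enters both this difference and the rule.

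**Figure D2:**
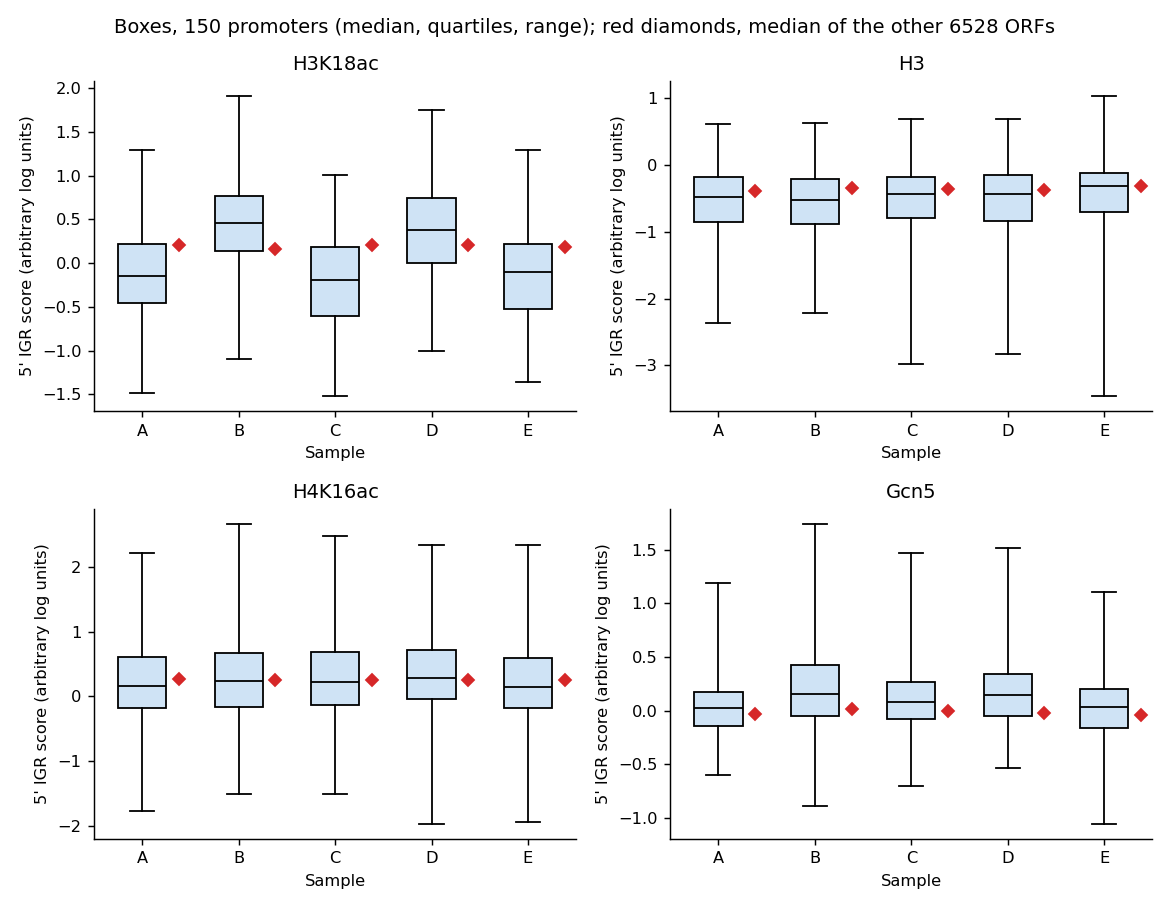
Promoter score (mean of the 9 bins of the 5′ IGR, arbitrary log units) of the 150 members in samples A to E for each antibody, as boxes with median, quartiles and full range, with the median of the other 6528 ORFs as red diamonds. H3K18ac is high in B and D, Gcn5 has its highest medians in the same samples, H4K16ac medians stay between 0.15 and 0.28, and H3 has its highest median in E.

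The members do not all stand for separate regions. RefSeq (assembly R64) holds 138 of them, and the other 12 are given by systematic name only. Among the 138, 62 lie next to another member, in 34 adjacent pairs of which 19 are divergent, 12 tandem and 3 convergent. The 2 ORFs of a divergent pair are scored from the same intergenic region, each on the side nearer to it, and are not independent of each other. Counting each run of neighbours once leaves 104 separate places among the 138. The other 12 were not placed, and some may lie beside a member. The later check with 1 member per run of neighbours counted each of these 12 as separate and so used 116 members. *SPL2* with *ARO9*, *ADR1* with YDR215C, *CYC3* with *CDC19*, *SDH6* with *ARO10*, and *PGM2* with YMR105W-A are divergent pairs. *IMA5* and *HXT8* are also divergent in RefSeq, but their systematic names, YJL216C and YJL214W, leave room for an ORF between them. The longest run holds 4 members, *PHO89*, *TYC1*, *MAL33* and *MAL31*.

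Of the 150 members, 67 could be placed in 9 groups by function, which were drawn up after the values had been seen and are not tested. The largest holds 23 genes for the use of carbon sources other than glucose or for its control. It includes the repressor gene *MIG1*, *REG2*, *GID10*, *UBC8* and the pyruvate kinase gene *PYK2*. There were 28 lists of genes, drawn up with earlier results of the data known. Members were 12 of 121 stress response genes (9.92%) and 4 of 31 genes of hexose transport and glucose sensing (12.9%). They were also 3 of 32 genes of glycolysis, fermentation and gluconeogenesis (9.38%) and 2 of 23 genes of the cell wall integrity pathway (8.70%). The other lists had smaller shares, and members were 2.25% of all ORFs. *HXT5* and *HXK1* are in both the hexose and the stress list. No member was found among 138 ribosomal protein genes, 131 ribosome biogenesis genes, 37 proteasome genes or 73 genes of chromatin modifiers and SAGA. Some shorter lists, such as the 69 mitochondrial ribosomal protein genes, also held none. At the 2.25% of all ORFs, lists of 37 or 73 genes would hold few members or none, and those of 138 or 131 genes only a few. The absence of members is therefore not read as a trait of any of these lists. In the ribosomal protein list H3K18ac was lower by more than the SD in 109 genes after KCl addition and in 131 after its removal, with 29% and 17.1% of all ORFs lower.

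**Figure D3:**
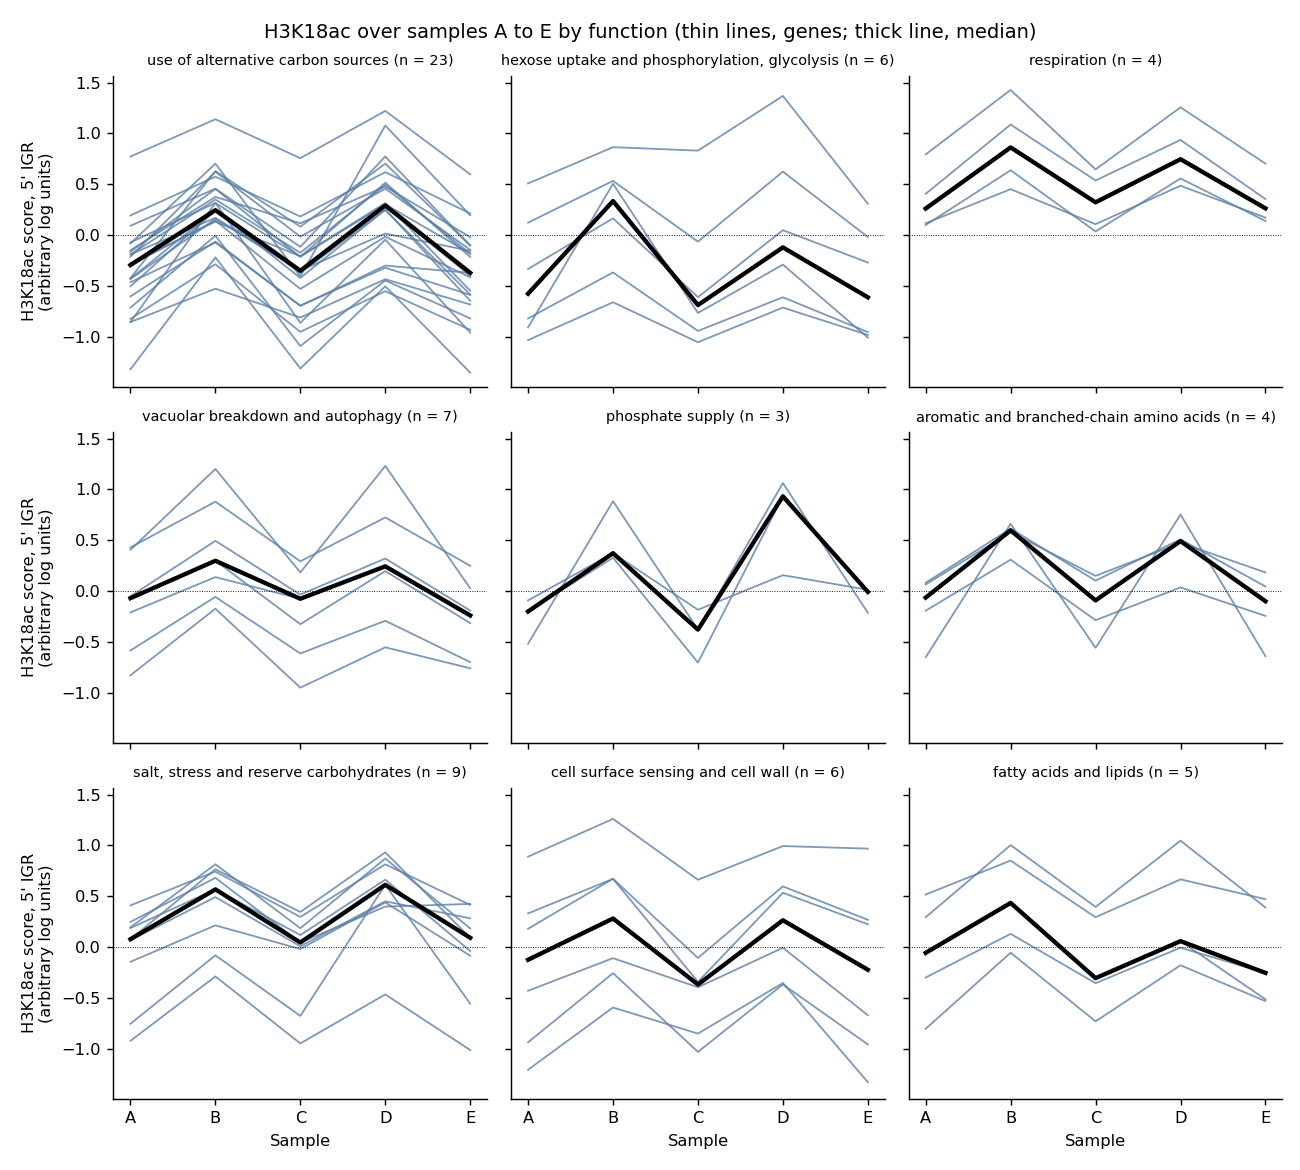
Promoter H3K18ac score (arbitrary log units) of each gene of the 9 function groups in samples A to E, thin lines for genes and a thick line for the group median. The medians of all 9 groups zigzag with peaks in B and D. The rule that chose the members largely sets this shape, so it is not a result about the groups. The level at which the zigzag runs differs from gene to gene.

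Genes for the use of other carbon sources or its control had a median difference in H3K18ac of 0.54 after KCl addition and 0.52 after its removal. In sample A 20 of the 23 scored below 0, where 36.0% of all ORFs did. *JEN1*, the lactate and pyruvate permease, scored -0.86, 0.32, -0.87, -0.05 and -0.96 in samples A to E. *CAT8*, which encodes the activator of gluconeogenic genes, scored -1.32, -0.22, -1.32, -0.51 and -1.36. Both were low in A, C and E and highest in B. *ADR1*, which encodes an activator of genes for ethanol and fatty acid use, scored -0.43, 0.63, 0.08, 0.70 and -0.10 and so kept part of its gain in C and E. *ACS1*, acetyl-CoA synthetase, scored -0.72, -0.01, -1.09, -0.45 and -0.82. The repressor itself was also a member. *MIG1* scored 0.77, 1.14, 0.76, 1.22 and 0.60, from the start well above the other genes of the group.

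Of the maltose genes, *MAL11*, *MAL12*, *MAL13*, *MAL31*, *MAL32* and *MAL33* were members. *MAL33*, which encodes a maltose activator, scored -0.08, 0.70, -0.41, 1.08 and 0.19. The maltase genes *MAL12* and *MAL32* gave nearly the same scores, -0.43, 0.24, -0.37, 0.25 and -0.65 for *MAL12* and -0.51, 0.24, -0.42, 0.25 and -0.59 for *MAL32*. The *MAL* loci are near-identical copies that may share probes, so their values may not be separate measurements. *SUC2*, invertase, scored 0.09, 0.45, -0.12, 0.77 and -0.10, with the larger gain after KCl removal.

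Hexose uptake and phosphorylation was represented by *HXT5*, *HXT8*, *HXK1* and *PFK26*. *HXT5*, a hexose transporter of slowly growing cells, scored -0.91, 0.50, -0.77, -0.29 and -1.01. Its gain of 1.41 after KCl addition was about the size of that of *SPL2*, and its gain of 0.48 after removal was near the median of the members. *HXK1*, hexokinase 1, scored 0.51, 0.86, 0.83, 1.37 and 0.31 and did not return to its original level in adapted cells. *CDC19*, the main pyruvate kinase, scored -1.04, -0.66, -1.06, -0.72 and -0.98, and *PYK2*, its glucose-repressed counterpart, -0.17, 0.45, -0.22, 0.51 and -0.22. The respiratory members *SDH1*, *SDH6*, *QCR9* and *CYC3* all scored above 0 in sample A, with median differences of 0.59 after KCl addition and 0.46 after its removal.

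Phosphate supply held the member with the highest score. Its genes were *SPL2*, *PHO89* and *PHM7*, the last from the stress response list. The phosphate list held 27 genes, of which 2 were members. Among the 27, H3K18ac was higher by more than the SD in 6 and lower in 9 after KCl addition. After its removal 18 were higher and 3 lower. Of 73 amino acid biosynthesis genes 3 were members, with 9 higher and 31 lower after addition and 35 and 5 after removal. Over all ORFs 17.2% were higher and 29% lower after addition, and 27% and 17.1% after removal. *SPL2*, a regulator that lowers low-affinity phosphate uptake, scored -0.52, 0.88, -0.38, 1.06 and -0.22, and the divergent *ARO9*, an aromatic aminotransferase, -0.65, 0.66, -0.56, 0.75 and -0.64. *PHO89*, the sodium-phosphate cotransporter, scored -0.20, 0.33, -0.71, 0.93 and -0.01, and its gain of 1.64 after KCl removal was the largest of any member in that change. With *ARO9*, the members *ARO10*, *BAT2* and *ARO3* also belong to the metabolism of aromatic and branched-chain amino acids, of which *ARO9* gained 1.31 in both changes and the other 3 between 0.50 and 0.53 after KCl addition and between 0.32 and 0.41 after its removal.

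The vacuolar proteases *PEP4*, *PRB1* and *APE3*, the vacuolar carboxypeptidase *ATG42*, the α-mannosidase *AMS1* and the autophagy genes *ATG8* and *ATG39* were members. *PEP4*, proteinase A, which activates the other vacuolar hydrolases, scored 0.41, 1.20, 0.18, 1.23 and 0.03, and its level in E was 0.38 below that in A. *ATG8*, the ubiquitin-like protein of the autophagosome, scored -0.83, -0.17, -0.95, -0.55 and -0.76.

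Among genes for salt, stress and reserve carbohydrates the gains were of similar size after both changes, with medians of 0.43 after addition and 0.52 after removal. *ENA1*, the sodium pump, scored -0.76, -0.08, -0.68, 0.61 and -0.56, with a gain of 1.29 after KCl removal and 0.67 after its addition. The neighbouring *ENA* genes are near-identical in their ORFs. *PGM2*, phosphoglucomutase, scored 0.19, 0.81, 0.18, 0.87 and 0.18, and *DDR2*, a stress-induced gene, 0.08, 0.76, 0.34, 0.93 and 0.09. *GLC3*, the glycogen branching enzyme, *NTH2*, a trehalase, and *IGD1*, an inhibitor of glycogen debranching, gained 0.33, 0.38 and 0.36 after KCl addition and 0.52, 0.54 and 0.46 after its removal. Cell surface members were the wall sensors *WSC3* and *MTL1*, the HOG pathway anchor *OPY2*, the wall genes *UTH1* and *MNN4*, and *PRM5*. The osmosensor gene *MSB2* was the first ORF outside the limit.

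Of the 12 members with the highest score, *YOR019W*, *TYC1*, YGR068W-A, *YMR082C*, *YGR067C* and *COS111* were in none of these groups. *YOR019W* scored -0.32, 0.65, -0.67, 0.23 and -0.34 and *YGR067C* -0.49, 0.26, -0.72, 0.58 and -0.68. YGR068W-A was not found in RefSeq. Its systematic name places it beside *YGR067C* and *ART5*, both of them members, and it may not be a separate place.

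Histone H3 at these promoters was lower after KCl addition in a larger share than over all ORFs, and the typical difference was small. The median of B minus A was -0.04, against 0.04 over all ORFs. H3 was lower by more than the SD in 29 members (19.3%), where 7.8% of all ORFs were, and higher in 17, where 13.9% were. After KCl removal the median was near 0 for the members and -0.02 for all ORFs, with 20 members lower (13.3%) against 8.18%, and 9 higher against 5.05%. With a threshold 1.5 times larger 4.0% of the members and 3.6% of all ORFs were lower after removal, and with the 4 bins nearest the start codon 8.7% and 6.4%. Only *WSC3* and *PKH2* were lower in both changes, 1.33% of the members against 0.928% of all ORFs. H3 in both B and D below A, C and E was seen in 25 members, where 6.48% of all ORFs had that order.

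The largest H3 losses after KCl addition were at *WSC3*, *HXT5*, *HXK1* and *LEE1*. *WSC3* had H3 scores of -1.37, -2.06, -1.89, -2.13 and -1.19 in samples A to E, *HXT5* -0.73, -1.39, -0.89, -0.69 and -0.78, *HXK1* -0.91, -1.55, -1.02, -0.98 and -0.50, and *LEE1* -0.83, -1.45, -1.30, -1.38 and -1.35. *HXT5* and *HXK1* were thus low in B alone, whereas *WSC3* and *LEE1* stayed low in C and D and only *WSC3* had regained its level in E. At *MIN3*, *MOT3*, *SUT2* and *ERD2*, by contrast, H3 was higher in B than in A by 0.81, 0.68, 0.58 and 0.50 although H3K18ac was higher too. After KCl removal the largest H3 losses were at *CIR2*, *SCD5*, *PYK2* and *COS111* (-0.75, -0.59, -0.50 and -0.49), and the largest gains at *FAS1*, *SUC2*, *ENA1* and *APE3* (0.88, 0.80, 0.49 and 0.48). *SUC2* had H3 scores of -1.22, -0.88, -1.42, -0.62 and -0.48, higher in B than A and in D than C.

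The group of salt, stress and reserve carbohydrate genes had the lowest median H3 difference of the 9 groups after KCl addition, -0.24, with 5 of 9 genes lower by more than the SD: *ENA1* (-0.55), *DDR2* (-0.43), *PGM2* (-0.35), *SOL4* (-0.27) and *GLC3* (-0.24). After removal 1 of the 9, *NTH2* (-0.38), was lower. Among the carbon source genes 6 of 23 were lower after addition and 2 after removal. Over all ORFs 7.8% were lower after addition and 8.18% after removal, so the small counts after removal were near that share. The groups were drawn up after the values had been seen.

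H3 was highest after recovery. Sample E had the highest H3 of the 5 samples in 82 members, against 33.4% of all ORFs, and the median of E minus A was 0.13 against 0.05. H3 in E exceeded that in A by more than the SD in 44 members (29.3%), where 17.5% of all ORFs did, and was lower in 14, where 7.05% were. *ARO9* had H3 scores of -1.84, -1.87, -1.25, -1.49 and -0.69, and the divergent *SPL2* -1.62, -1.40, -1.26, -1.54 and -0.75. *CDC19* went against this, with -2.37, -2.22, -2.97, -2.83 and -3.46, the lowest H3 of any member in all 5 samples. Set against H3 of the same promoter and sample, H3K18ac was higher in B than A in 144 members and in D than C in 148. The medians were 0.57 and 0.49, against -0.07 and 0.05 over all ORFs. The rule had already chosen the members for higher H3K18ac in both changes, so these values largely describe the choice. The methods give the same catalogue number for the H3K18ac and H3 antibodies. Across the 6678 ORFs the rank correlation of the H3K18ac and H3 scores of a sample was between -0.07 and 0.04, so the 2 sets of files did not resemble each other.

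H4K16ac was higher in a larger share of the members than of all ORFs after both changes, and lower in a smaller share. It is laid down mainly by Sas2 and Esa1 rather than Gcn5. The median of B minus A was 0.08 against -0.02 over all ORFs, with 61 members higher by more than the SD (40.7%) where 13.1% of all ORFs were, and 26 lower where 21.2% were. The median of D minus C was 0.06 against 0.00, with 48 members higher (32.0%) where 11.8% were, and 21 lower where 19% were. The mark was higher in both changes in 12 members, 8.00% against 0.988% of all ORFs, among them *JEN1*, *ACS1*, *ARO10* and *SDH6*. *JEN1* had H4K16ac scores of -0.40, -0.14, -0.32, -0.01 and -0.43. The median of E minus A was 0.00, with 13 members higher where 7.83% of all ORFs were and 28 lower where 15.8% were. In the mean profile of the members the H4K16ac difference after addition was 0.11 over the first 4 bins of the ORF. Over the 5′ IGR it was 0.06. In the other ORFs the same values were 0.02 and -0.03.

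The largest gains of H4K16ac after KCl addition were 0.77 at *COS12*, a subtelomeric gene, 0.45 at *MIN3* and 0.43 at *HXT5*. The largest losses were at *HXK1* (-0.63), *FAA1* (-0.61) and *IGD1* (-0.44), where H3K18ac gained 0.36, 0.71 and 0.36. *FAA1*, an acyl-CoA synthetase, had H4K16ac scores of 0.04, -0.57, -0.09, -0.29 and -0.08 beside H3K18ac scores of 0.29, 1.00, 0.39, 1.05 and 0.39, so that the 2 marks moved in opposite directions in both changes. Of the 9 salt, stress and reserve carbohydrate genes 4 had lower H4K16ac in B, where 21.2% of all ORFs did. In D 5 had higher H4K16ac, where 11.8% of all ORFs did. Across the members the rank correlation of the H3K18ac and H4K16ac differences was 0.29 after addition and 0.27 after removal, and 0.45 and 0.42 across all 6678 ORFs. These points share their arrays, and neighbouring ORFs are not independent. The rule also set a lower limit on the H3K18ac differences of the members. This narrows their range, so their correlations cannot be compared with those across all ORFs.

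Gcn5 was higher by more than the SD at 87 of the 150 members after KCl addition and at 48 after its removal. The median of B minus A was 0.15 against 0.04 over all ORFs, and the 87 members make 58.0% where 32.2% of all ORFs were higher. There were 13 lower, where 14.9% of all ORFs were. The median of D minus C was 0.05 against 0.00, and the 48 members make 32.0% where 12.9% were higher, with 17 lower where 18.2% were. With the median over the 9 bins in place of the mean, 38% of the members and 23.0% of all ORFs were higher after KCl addition. In the mean profile of the members the Gcn5 difference after addition was largest in the seventh bin of the 5′ IGR, at 0.26. After removal it lay between 0.05 and 0.09 over the whole 5′ IGR and was not confined to it. It averaged 0.06 over the first 4 and over the last 4 bins of the ORF. Gcn5 over the ORF was higher in D than C in 112 members, where 54.0% of all ORFs were. Over the 5′ IGR it was higher in 99, where 48.0% were. The Gcn5 file of sample B resembled the other Gcn5 files least, with rank correlations over the 6678 ORFs of 0.68 to 0.78 against 0.85 to 0.90 among the other 4, and its part in the difference was not tested. The Gcn5 file of sample A held exact zeros in 29 promoter bins of 23 members, and with these taken as missing 54.7% of the members were higher. In E against A, Gcn5 was higher in 22 members where 9.24% of all ORFs were, and lower in 26 where 13.4% were.

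Gcn5 was higher in both changes in 25 members, 16.7% against 3.55% of all ORFs. Among them were *SPL2*, *ARO9* and *PHO89*, and *CAT8*, *ACS1*, *MAL33*, *SUC2*, *PYK2*, *ZNF1*, *GID10*, *ENA1*, *FAA1* and *CDC19*. *SPL2* had Gcn5 scores of 0.64, 1.06, 0.44, 1.27 and 0.71, and *PHO89* of 0.56, 0.97, 0.48, 1.20 and 0.72. All 3 members of the phosphate group, and 16 of 23 carbon source genes, were higher after KCl addition, where 32.2% of all ORFs were. After its removal these counts were 3 and 11, where 12.9% of all ORFs were higher. *JEN1*, with 0.11, 0.54, 0.07, 0.13 and 0.14, was high in B alone although its H3K18ac was high in D as well. The largest Gcn5 gains in B were at *FAS1* (0.88), *BAG7* (0.72) and *SUT2* (0.68), and the largest losses at *IGD1* (-0.67), *MIG1* (-0.35) and YGL034C (-0.28), which lies beside *MIG1*. *IGD1* had Gcn5 scores of -0.21, -0.89, -0.38, -0.02 and -0.07, so its H3K18ac gain of 0.36 in B was measured together with a lower Gcn5 score.

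**Figure D4:**
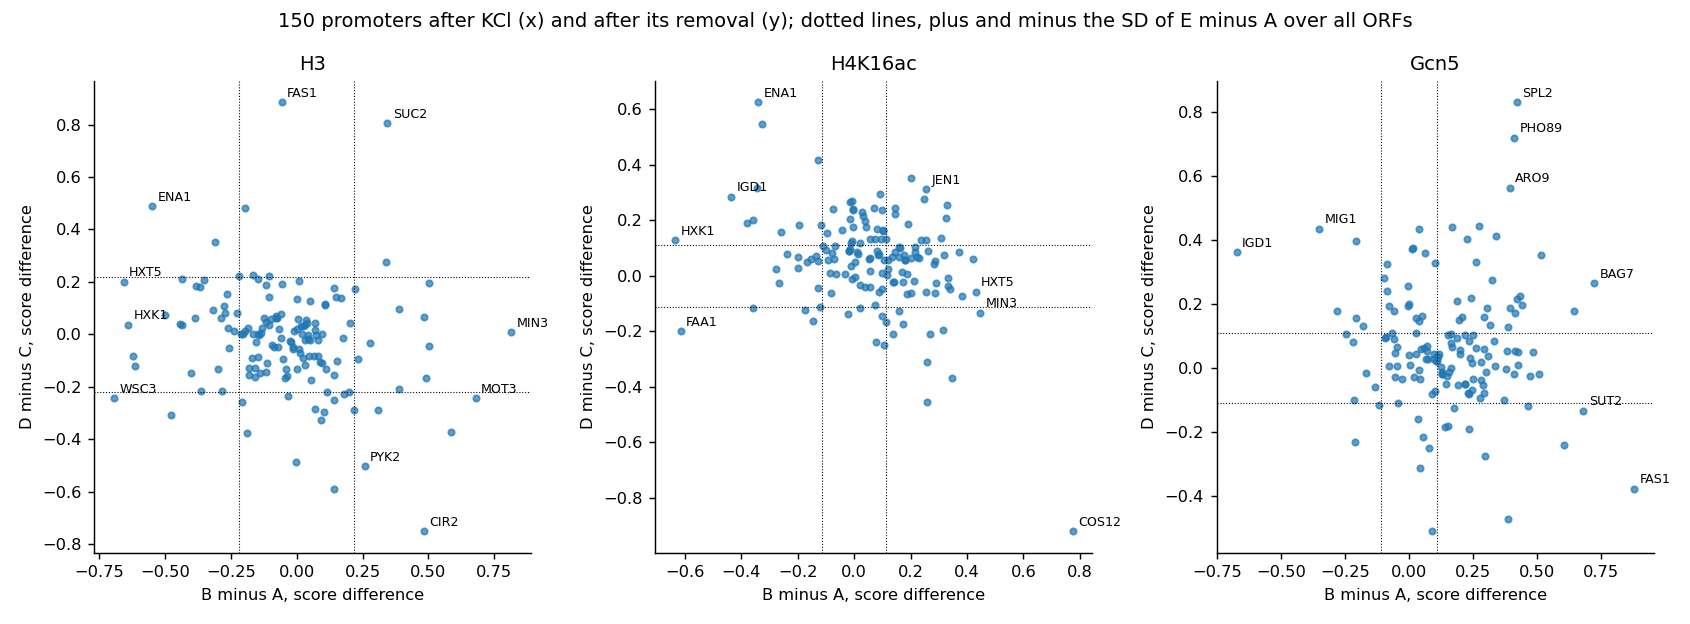
Difference in promoter score of the 150 members after KCl removal (D minus C, y axis) against that after KCl addition (B minus A, x axis) for H3, H4K16ac and Gcn5, with dotted lines at plus and minus the SD of E minus A over all ORFs. For H3, 103 of the 150 are lower by more than the SD in neither change, while for Gcn5 87 of the 150 lie to the right of the upper line in B minus A and 48 above it in D minus C.

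H3, H4K16ac and Gcn5 combined in different ways. After KCl addition 34 members had both Gcn5 and H4K16ac higher by more than the SD (22.7%, against 5.38% of all ORFs) and 20 had Gcn5 higher with H3 lower (13.3% against 3.77%). In 7 members all 3 held, *JEN1*, *CYC3*, *BAG7*, *HXT5*, YDL221W, *PHM7* and *YOL085C*, of which the last pair are divergent neighbours. In 29 members none of the 3 was seen (19.3% against 56.4%), which leaves in members that differed the other way, such as *MOT3* with H3 higher by 0.68 and *IGD1* with Gcn5 lower. After KCl removal all 3 held only in *SPL2*, *ARO9* and *PKH2*, and none in 62 members (41.3% against 72.5%).

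**Figure D5:**
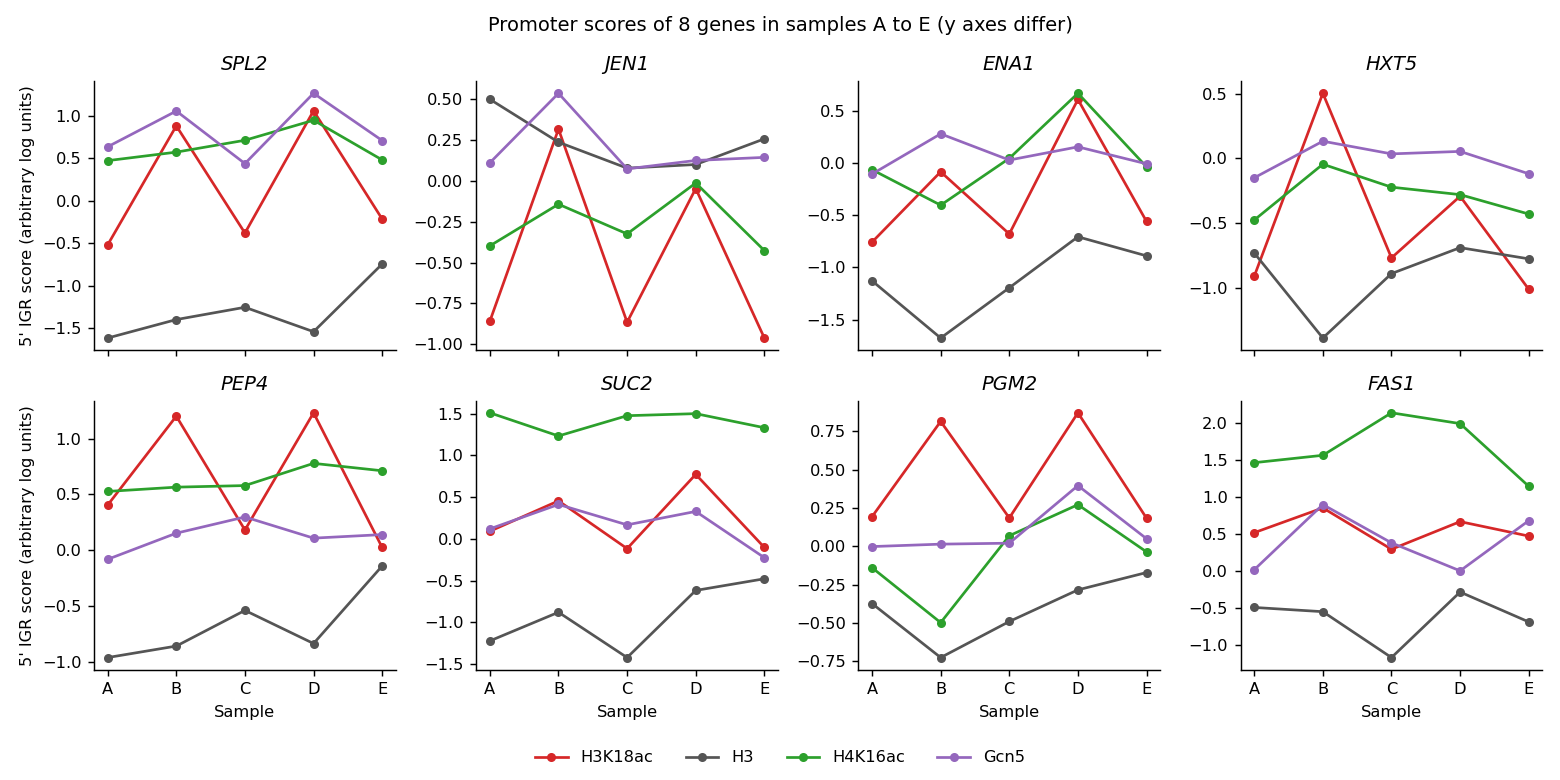
Promoter scores (arbitrary log units, y axes differ) of H3K18ac, H3, H4K16ac and Gcn5 in samples A to E at 8 members. H3K18ac peaks in B and D at all 8, which the rule largely sets. H3 is lowest in B at *ENA1*, *HXT5* and *PGM2*, Gcn5 peaks in B alone at *JEN1*, and H4K16ac is lowest in B and highest in D at *ENA1* and *PGM2*.

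Single genes showed how the 2 changes differed. At *ENA1* the H3 scores were -1.13, -1.68, -1.19, -0.71 and -0.89, the H4K16ac scores -0.06, -0.40, 0.05, 0.67 and -0.04, and the Gcn5 scores -0.10, 0.28, 0.03, 0.16 and -0.01. H3 and H4K16ac were thus lower in B and higher in D, while H3K18ac and Gcn5 were higher both times. At *PEP4* the H3 scores were -0.96, -0.86, -0.54, -0.83 and -0.14 and the Gcn5 scores -0.08, 0.15, 0.30, 0.11 and 0.14, so that H3K18ac gained 1.05 in D with Gcn5 0.19 lower than in C. *FAS1*, a fatty acid synthase subunit, had Gcn5 scores of 0.02, 0.90, 0.38, 0.00 and 0.68, and its Gcn5 differed in sign between the changes.

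The members were compared with ORFs that gained H3K18ac after only 1 change, by at least the lowest member score, with a difference below the SD in the other. There were 209 such ORFs after KCl addition and 413 after its removal, and these sets are again fixed by H3K18ac. After KCl addition Gcn5 was higher in 58.0% of the members, 49.3% of the ORFs that gained only then and 32.0% of those that gained only after removal. H4K16ac was higher in 40.7%, 59.3% and 4.60% in the same order. After KCl removal Gcn5 was higher in 32.0% of the members, 32.7% of the ORFs that gained only then and 11% of those that had gained only after addition, and H4K16ac in 32.0%, 36.1% and 6.70%. H3 was lower after addition in 19.3%, 14.4% and 11.1%, and after removal in 13.3% of the members, 20.3% of the ORFs that gained only then and 8.13% of those that had gained only after addition. The members' share was below that of the ORFs that gained in the same change alone for H4K16ac after addition and, by less, for H3, H4K16ac and Gcn5 after removal. With 1 array per sample the differences between these sets were not tested.

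In adapted cells H4K16ac was about as far above its original level as in B. From A to C the median difference was -0.06 for H3K18ac, 0.01 for H3, 0.08 for H4K16ac and 0.05 for Gcn5, and H4K16ac was higher in C in 112 of the 150 (46.7% of all ORFs), while the median of B minus C was 0.00. Sample D enters the rule, which bears on E minus D for H3K18ac. In E against D, H3K18ac was higher in 1 member, H4K16ac in 22 and Gcn5 in 26, where 40.0%, 48.0% and 41.5% of all ORFs were, with median differences of -0.47, -0.14 and -0.13. H3 was higher in E in 111 members, where 63.2% of all ORFs were, with a median of 0.10. Over all ORFs the medians of E minus D were -0.04 for H3K18ac, 0.00 for H4K16ac, -0.02 for Gcn5 and 0.04 for H3.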

How the data were processed

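The authors precipitated chromatin from samples A to E with 4 antibodies, hybridised it to Affymetrix tiling arrays beside input DNA and computed the signal with Tiling Analysis Software. What they deposited is a score on a log scale, whose base is not given in the sources used here, averaged by the authors into 38 bins for each of 6685 ORFs, in 20 files. The genome build of the files is not given in the sources used here. After the centring described above, 6 ORFs with missing values and 1 with an absolute value above 20 were left out. Names and neighbours of 5985 of the 6678 ORFs used came from RefSeq (R64). No sequence was used. No depth applies to arrays, and their number limits the precision.

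Genes were named by rule: the 12 highest scores, 3 on each side of the limit, the 4 (H3) or 3 (H4K16ac, Gcn5) largest differences in each direction, and genes of lists. Members named for their function group, their H3 difference within it, or H3K18ac in E against A were chosen after their values were seen. The members and lists were chosen with earlier results of these data known. The selection was tested on simulated data. Alternatives changed centring, bins, members and threshold. Treating zeros as missing was added after seeing the data. Scripts ran under Python 3.11.15 with scipy 1.17.1, pandas 2.3.3, matplotlib 3.10.9 and numpy 2.4.6.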

Additional observations from a re-analysis of the deposited data

Results flagged for a closer look

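At the members listed here a mark differed by more than 2 SD in each medium change but in opposite directions. With 1 array per sample the difference between the changes was not tested. Differences are given for KCl addition (B minus A) and then for KCl removal (D minus C). H3 at *ENA1* differed by -0.55 and 0.49, and at *CIR2* by 0.48 and -0.75. H4K16ac was lower after addition and higher after removal at *ENA1* (-0.34 and 0.62), *PKH2* (-0.32 and 0.55), *MPC3* (-0.34 and 0.32) and *IGD1* (-0.44 and 0.29). It was higher after addition and lower after removal at *COS12* (0.77 and -0.92), *CDC19* (0.26 and -0.45), *SUT2* (0.35 and -0.37) and *PXA2* (0.26 and -0.31). Gcn5 was lower and then higher at *IGD1* (-0.67 and 0.36) and *MIG1* (-0.35 and 0.43), and higher and then lower at *FAS1* (0.88 and -0.38), *YML131W* (0.60 and -0.24), *MIN3* (0.39 and -0.47) and *CIR2* (0.30 and -0.28).

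At 1 SD in each change, opposite directions were seen for H3 in 7 members (4.67%, against 3.89% of all ORFs), for H4K16ac in 22 (14.7% against 9.75%) and for Gcn5 in 16 (10.7% against 13.4%). The shares for H3 and Gcn5 were thus near those of all ORFs.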

How the results depend on the processing

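Of the 150 members, 142 were chosen again without centring, 139 after quantile normalization, 106 with the median of the 9 bins, 96 with the 4 bins nearest the start codon and 82 with H3K18ac minus H3. The small median H3 difference after KCl removal, -0.004, had no stable sign: it was 0.000 without centring, 0.004 after quantile normalization, 0.035 with the 4 bins, 0.007 in the 75 members of highest score, 0.000 with 1 member per run of neighbours and -0.033 with the median of the bins. The H3 difference after addition, -0.039, was -0.070 after quantile normalization, -0.085 with the 4 bins and -0.088 in the 75 members of highest score. The median Gcn5 difference after addition was 0.095 after quantile normalization and 0.073 with the median of the bins, where 38% of the members were higher, and after removal it was 0.084 in the 75 members. With a threshold 1.5 times larger, H3 was lower in 11.3% of the members after addition (4.2% of all ORFs) and in 4.0% after removal (3.6%), and H4K16ac was higher after removal in 20.7% (5.4%). With the 4 bins H3 was lower after removal in 8.7% (6.4%). The cause of these shifts was not tested. The other recomputed differences and shares kept their direction and lay within 1.5 times. The 84 values counted as within that limit also include the overlaps of 142, 139 and 106 members, which have no direction. No paired analysis was possible because each antibody and sample has 1 value and the labels carry no replicate numbers, and no replicate could be left out.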
